A study of Homo sapiens with 10 samples.

Results

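FOXA1, GATA3, ELF3, ELF5, EHF, SPDEF, TFAP2A, TFAP2C, KLF5 and MYB are transcription factors that set or maintain the luminal identity of mammary epithelium, and their mRNA was followed here on every array of a progestin experiment. The 10 genes were taken from a list chosen with earlier results of these data known. Every probe set assigned to one of their symbols alone was used, which gave 23 of the 19070 probe sets that carried a single gene. Each gene was led by its probe set of highest mean over the 10 arrays, and all 10 genes passed the filter on low values (highest array at log2 6 or more), as did 10911 of the 11963 genes measured. RNA came from T47D cells, an established human luminal breast cancer line, of the T47D-Y parent, a subline that lacks progesterone receptor (PR). In the iKR line the inducible vector carried PR-B with the K388R substitution, which removes the site of SUMO attachment. In the iWT line it carried wild-type PR-B, and in the iEV line it was empty. AP21967, the dimerizer that by the study's account switches the vector on, was given for 2 days. By its methods the cells were then serum starved for 1 day, and R5020, a synthetic progestin, or vehicle was given for 6 h. The iKR and iWT lines were each measured with both compounds, AP21967 alone, R5020 alone and vehicle, and iEV with AP21967 and with vehicle, which makes 10 arrays with 1 array per condition. The inducible lines are clonal by the study's account. No line was measured a second time under any condition, and nothing separates a line from its receptor, so each statement about a line is about that cell line.

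These factors act in layers. FOXA1 is a pioneer factor that opens chromatin for the estrogen receptor, and GATA3 holds luminal cells in their fate. ELF3, ELF5, EHF and SPDEF are ETS family proteins of epithelia, of which ELF5 directs the milk-producing alveolar lineage. TFAP2A and TFAP2C are AP-2 proteins that act on the promoters of ESR1 and ERBB2, KLF5 is a Krüppel-like factor of proliferating epithelium, and MYB is an estrogen-responsive regulator of proliferation. In the mammary gland progesterone acts on receptor-positive luminal cells.

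Promoters matched 9 of the 10 genes in the RefSeq table (GRCh38.p14). The 250 bases before each start listed there were searched on both strands. For ELF5 and EHF that start lies within the annotated gene and not at its outer end. Motifs of the receptor and of the forkhead, GATA, ETS and AP-2 families were sought, as were GC and TATA boxes, but no MYB motif. The 4 printed here hold at least 1 match to a motif of the receptor or of the forkhead, GATA, ETS or AP-2 families. They are shown so that the matches can be placed. Capitals mark, in GATA3, an AP-2 motif (GCCNNNGGC) and an ETS motif (CCGGAA), in ELF5 a forkhead motif (TGTTTAC, read here on the other strand), in KLF5 a progesterone receptor hexamer (AGAACA, also on the other strand) and, in MYB, an AP-2 motif followed by a forkhead motif. All run 5′ to 3′ on the strand of the gene. GATA3 is chr10:8045083-8045332 (plus), ELF5 chr11:34511725-34511974 (minus), KLF5 chr13:73054726-73054975 (plus) and MYB chr6:135181058-135181307 (plus).
GATA3: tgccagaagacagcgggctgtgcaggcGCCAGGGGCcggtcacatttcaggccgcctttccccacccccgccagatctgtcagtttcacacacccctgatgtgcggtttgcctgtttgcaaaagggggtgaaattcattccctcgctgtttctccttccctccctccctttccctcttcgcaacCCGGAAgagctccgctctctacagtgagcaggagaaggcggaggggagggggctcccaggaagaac
ELF5: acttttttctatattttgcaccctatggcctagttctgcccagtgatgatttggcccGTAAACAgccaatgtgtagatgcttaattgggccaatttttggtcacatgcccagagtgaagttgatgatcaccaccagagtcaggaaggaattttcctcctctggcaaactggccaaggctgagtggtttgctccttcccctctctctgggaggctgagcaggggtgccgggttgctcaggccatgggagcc
KLF5: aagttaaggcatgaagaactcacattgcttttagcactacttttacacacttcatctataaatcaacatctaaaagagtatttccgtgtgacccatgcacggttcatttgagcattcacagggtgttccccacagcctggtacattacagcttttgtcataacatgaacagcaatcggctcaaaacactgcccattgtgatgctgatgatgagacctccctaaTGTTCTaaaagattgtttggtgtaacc
MYB: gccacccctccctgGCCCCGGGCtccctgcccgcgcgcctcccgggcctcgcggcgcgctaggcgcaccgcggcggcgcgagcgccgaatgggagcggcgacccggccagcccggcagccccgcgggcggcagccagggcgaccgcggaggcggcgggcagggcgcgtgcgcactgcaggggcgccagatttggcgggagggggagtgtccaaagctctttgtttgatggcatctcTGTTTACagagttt
These matches were not rare among promoters. Of 35116 promoters of the same length, 12.4% held the receptor hexamer, 2.98% the forkhead motif, 14.5% the ETS motif and 19.8% the AP-2 motif. The receptor hexamer was found in KLF5, the forkhead motif in ELF5 and MYB, the ETS motif in GATA3 and the AP-2 motif in GATA3 and MYB. A GATA motif (AGATAA), which 9.17% of promoters held, was in none of the 9, nor was the palindromic progesterone response element, made of that hexamer and its inverse (in 0.00285% of promoters). A GC box (GGGCGG, in 42.6% of promoters) was found in FOXA1 and MYB and a TATA box (TATAAA, in 10.7%) in ELF3, TFAP2A and KLF5. ELF5 and EHF are neighbors on chromosome 11, with 107.3 kb between them, while the other members lie on chromosomes 1, 6, 10, 13, 14 and 20.

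The receptor vector was read from PGR itself. PGR signal (RMA, log2) was 11.38 with both compounds, 12.08 with AP21967, 11.43 with R5020 and 10.65 with vehicle in iKR cells, and 11.89, 11.34, 11.77 and 11.12 under the same conditions in iWT cells. The iEV arrays read 6.17 with AP21967 and 6.25 with vehicle. PGR was thus far above the iEV arrays in both receptor lines without AP21967 as well as with it. The study describes receptor expression in these lines as dependent on AP21967 alone, and followed the protein by western blot. These mRNA values do not show such dependence, and the reason was not tested. Luminal epithelial markers were measured 9 of 9 past the filter, with gene means of log2 11.73 to 15.01, and their summed level was 16.80 and 16.86 on the arrays with both compounds, against 16.85 to 16.94 on the other 8. Of 9 basal or myoepithelial markers, 7 were measured and 6 passed the filter. The summed level of the 7 was 11.54 and 11.65, against 11.73 to 11.86, and CDH3 was the brightest of them. For R5020 with AP21967, 1 luminal marker (CLDN4, -0.47) and 1 basal marker (CDH3, -0.36) were called lower and none higher by the limma fit described below. Of the fibroblast, endothelial and leukocyte markers, 3 of 5, 2 of 3 and 3 of 5 passed the filter, none was called for R5020 with AP21967, and COL3A1, LUM, CDH5 and LYZ stayed below it. What part the makeup of the culture had in the results below was not tested, and in bulk RNA fewer cells of a kind cannot be told apart from less RNA per cell.

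The first question was what R5020 did to the luminal factors in the presence of AP21967. Of the 10, 9 fell. With a shared R5020 effect fitted over iKR and iWT, the members had a median log2 difference of -0.70 (R5020 minus vehicle, both with AP21967), against 0.01 over all genes, and the estimates of the genes called ran from -1.01 for FOXA1 to -0.39 for GATA3. Only EHF did not pass. Calls were made with limma at an adjusted p under 0.05 over all 10911 genes, and 6.25% of all genes were called lower (5.23% higher). The fit used 8 arrays and 6 parameters, so that only 2 residual degrees of freedom came from the arrays of a gene itself, and the 2 lines served as repeats of each other.

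FOXA1 had the largest estimate. Its signal was 9.85 with both compounds in iKR cells, against 11.11 with AP21967, 11.12 with R5020 and 11.15 with vehicle. In iWT cells it was 10.52 with both, against 11.28 with AP21967, 11.16 with R5020 and 11.30 with vehicle. The iEV arrays read 11.16 with AP21967 and 11.23 with vehicle. The 2 arrays with both compounds were therefore the lowest of the 10, and the other 8 spanned only 0.20. R5020 with AP21967 gave a difference of -1.25 in iKR and -0.76 in iWT, and the shared estimate was -1.01 (SE 0.11, limma adjusted p = 0.00101).

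GATA3 gave a smaller difference at its brightest probe set. In iKR cells it read 13.44 with both compounds, against 13.90, 13.96 and 14.02 with AP21967, R5020 and vehicle. In iWT cells it read 13.86, against 14.17, 14.18 and 14.21 under the same conditions in that order, and the iEV arrays read 14.27 with AP21967 and 14.21 with vehicle. The iWT array with both compounds stood clear of the other iWT arrays but within 0.05 of the iKR array with AP21967. The shared estimate was -0.39 (SE 0.08, adjusted p = 0.0156 by limma), from -0.46 in iKR and -0.31 in iWT.

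**Figure D1:**
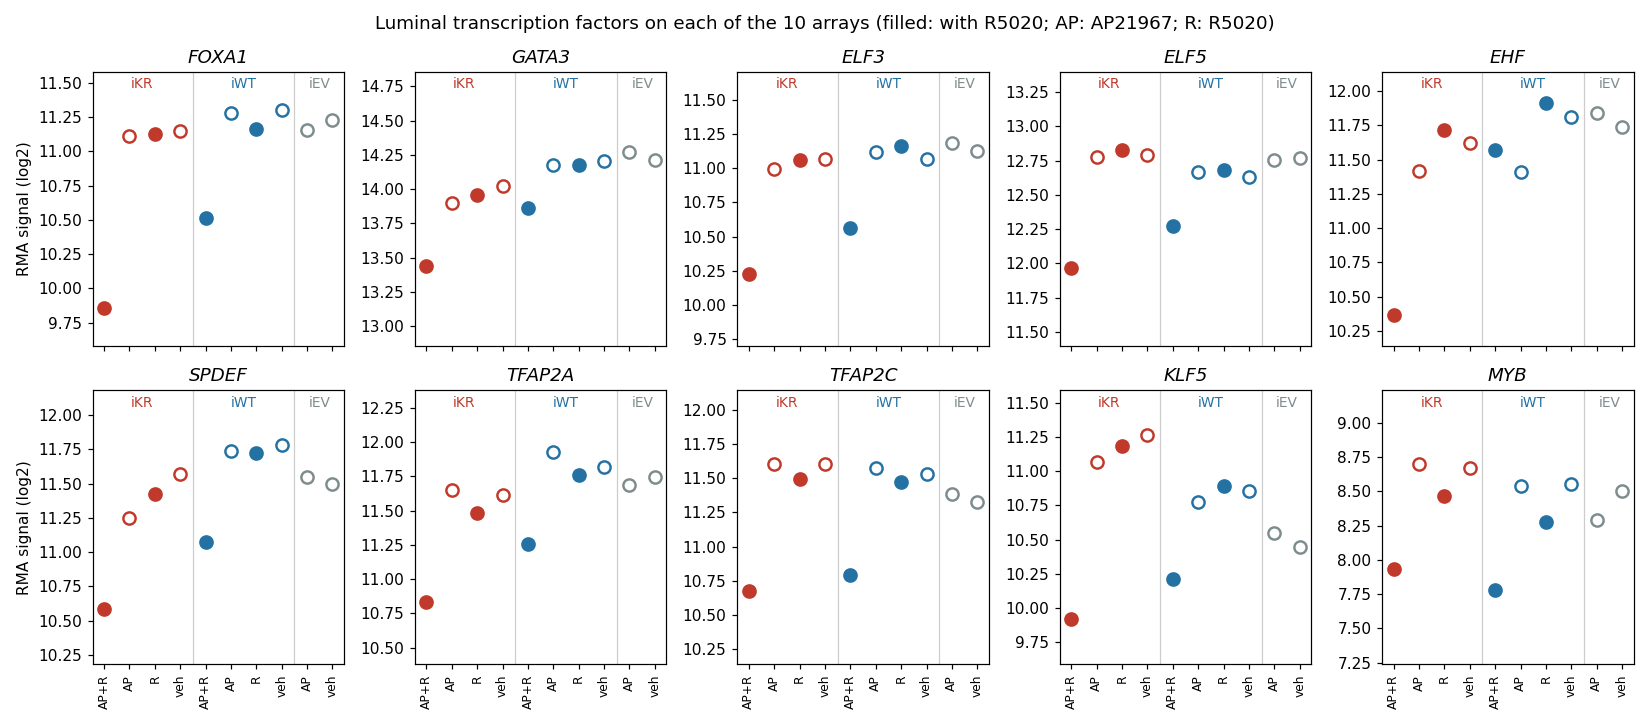
RMA signal (log2) of the lead probe set of each gene on each of the 10 arrays, by line (iKR red, iWT blue, iEV gray), with filled points for arrays with R5020. All panels span the same number of log2 units. In 9 of the 10 both arrays with AP21967 and R5020 lie below the other 8, as for 8.84% of all genes. The exception is EHF in iWT.

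Among the ETS proteins, ELF3 and ELF5 fell in the same manner. ELF3 read 10.22 with both compounds in iKR cells and 10.56 in iWT cells, against 10.99 to 11.18 on the other 8 arrays. ELF5 read 11.97 in iKR and 12.28 in iWT cells with both compounds, against 12.63 to 12.83. For both genes the other 8 arrays lay within 0.20 of each other, and neither group of arrays overlapped the other. Over all genes, 8.84% had both arrays with AP21967 and R5020 below the other 8. The shared estimates were -0.66 for ELF3 (SE 0.08, limma adjusted p = 0.00177) and -0.60 for ELF5 (SE 0.10, adjusted p = 0.00737).

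SPDEF, named for its discovery in prostate epithelium, read 10.58 with both compounds in iKR cells, against 11.25, 11.42 and 11.57 with AP21967, R5020 and vehicle. In iWT cells it read 11.07, against 11.74 with AP21967, 11.72 with R5020 and 11.78 with vehicle, and the iEV arrays read 11.55 with AP21967 and 11.50 with vehicle. Its R5020 difference at this lead probe set was -0.66 in each line, and the SE of the shared estimate was 0.08 (limma adjusted p = 0.00118). Some SPDEF probe sets of lower mean gave little difference, as listed below. The iKR array with AP21967 alone was also the lowest of the arrays that lacked both compounds together.

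EHF was the exception. In iKR cells it read 10.37 with both compounds, against 11.42, 11.72 and 11.62 with AP21967, R5020 and vehicle, a difference of -1.05 for R5020 with AP21967. In iWT cells it read 11.57 with both, against 11.41 with AP21967, 11.91 with R5020 and 11.81 with vehicle, a difference of 0.16, and the iEV arrays read 11.84 with AP21967 and 11.73 with vehicle. The iKR array was below all others, whereas the iWT array fell inside the range of the 8 (11.41 to 11.91). The shared estimate of -0.44 had an SE of 0.22 and a 95% interval from -0.94 to 0.05 (limma adjusted p = 0.234). In iWT cells AP21967 alone differed from vehicle by -0.41, and both compounds differed from R5020 alone by -0.34.

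The AP-2 factors fell, with single differences of -0.82 (TFAP2A) and -0.92 (TFAP2C) in iKR cells and -0.67 and -0.78 in iWT cells. TFAP2A read 10.83 in iKR and 11.26 in iWT cells with both compounds, against 11.48 to 11.92 on the other 8 arrays. TFAP2C read 10.68 in iKR and 10.79 in iWT cells, against 11.33 to 11.61. Neither gene overlapped between the 2 arrays and the 8, where 8.84% of all genes had the 2 arrays below the 8. The estimate for TFAP2A was -0.74 (SE 0.08, limma adjusted p = 0.000863) and that for TFAP2C -0.85 (SE 0.08, adjusted p = 0.000427), the smallest p of the members, at rank 61 of all genes.

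KLF5 differed between the lines before any treatment and still fell in both. With both compounds it read 9.92 in iKR cells, against 11.06, 11.18 and 11.26 with AP21967, R5020 and vehicle. In iWT cells it read 10.21, against 10.77 with AP21967, 10.89 with R5020 and 10.85 with vehicle, and the iEV arrays read 10.55 with AP21967 and 10.45 with vehicle. Its difference for R5020 with AP21967 was -1.14 in iKR and -0.56 in iWT, with a shared estimate of -0.85 (SE 0.13, limma adjusted p = 0.00348). MYB read 7.93 in iKR and 7.78 in iWT cells with both compounds, against 8.28 to 8.70 on the other 8 arrays. Its difference was -0.76 in each line (shared estimate -0.76, SE 0.08, adjusted p = 0.000646).

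Read by the methods of the study, as log2 differences of 2 single arrays and lists past 2.0 fold, 3 members passed in iKR cells (0.486% of all genes were lower by that much) and 0 in iWT cells (0.101%). FOXA1 was lower by 2.38 fold, KLF5 by 2.21 fold and EHF by 2.07 fold with R5020 in iKR. At 1.5 fold, 9 members passed in iKR (3.16% of all genes) and 5 in iWT (1.02%), these being FOXA1, SPDEF, TFAP2A, TFAP2C and MYB. Both arrays with AP21967 and R5020 lay below the other 8 for 9 members, against 8.84% of all genes.

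**Figure D2:**
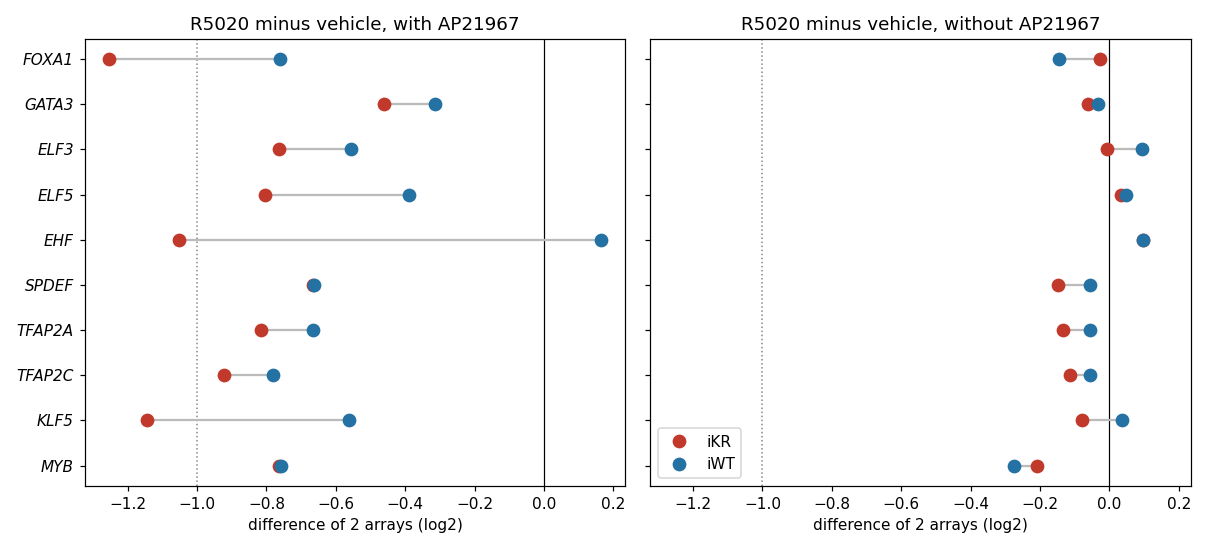
Log2 difference of 2 single arrays (R5020 minus vehicle) for each gene in iKR (red) and iWT (blue), with AP21967 at left and without it at right, and a dotted line at 2.0 fold. With AP21967 the values lie between -1.25 and 0.16, and without it between -0.28 and 0.10 (the iKR and iWT points of EHF coincide at right).

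The second question was whether the response differed between the iKR and iWT lines. Their PGR signal also differed, at 12.08 in iKR and 11.34 in iWT with AP21967, and 11.38 and 11.89 with both compounds. At the protein level, by western blot, the study reports that the inducer brought the receptor to equal amounts in iWT and iKR cells. The arrays measured mRNA and not protein. What part receptor level, clone or the mutation had in the gap was not tested here, and the design of the arrays does not separate them. For all 10 genes the R5020 difference with AP21967 was lower in iKR than in iWT, by a median of -0.18, while 42.3% of all genes were lower in iKR and their median was 0.04. The gap was -1.22 for EHF, -0.58 for KLF5, -0.49 for FOXA1 and -0.42 for ELF5. It was -0.21 for ELF3, -0.15 for GATA3 and TFAP2A, -0.14 for TFAP2C, -0.01 for MYB and -0.002 for SPDEF. These values are of the lead probe sets, where only EHF passed 1.5 fold (1.48% of all genes did so in this direction) and SPDEF and MYB gave nearly equal values in both lines. Among all 23 probe sets 19 were lower in iKR, and the second KLF5 probe set (-1.57) and another of GATA3 (-0.60) also passed 1.5 fold. The 4 that were higher in iKR were 2 of SPDEF (0.07 and 0.06), 1 of TFAP2C (0.17) and 1 of MYB (0.32).

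The gap between the lines can be tested only if effects are shared elsewhere. A limma fit chosen after seeing the data took all 10 arrays, with 1 AP21967 effect for the 3 lines, 1 effect of R5020 without AP21967 for both receptor lines and a separate R5020 effect with AP21967 in each (7 parameters, 3 residual degrees of freedom). The arrays with both compounds were each fitted exactly, so that the error came from the other 8. No spread between cultures with both compounds enters this test. By this fit the R5020 effect was lower in iKR than in iWT for 4 members and higher for 0, where 1.82% of all genes were called lower and 1.77% higher. They were EHF (-1.08, SE 0.17, adjusted p = 0.0148 by limma), KLF5 (-0.62, SE 0.12, adjusted p = 0.0282), FOXA1 (-0.54, SE 0.09, adjusted p = 0.0219) and ELF5 (-0.45, SE 0.09, adjusted p = 0.0282). ELF3 (-0.26), GATA3 (-0.19), TFAP2A (-0.18), SPDEF (-0.16), TFAP2C (-0.16) and MYB (-0.004) did not pass, with adjusted p of 0.155 to 0.989. Over all genes 199 were called lower and 193 higher, against 310 lower and 165 higher after cyclic loess normalization. The shared fit above counted this gap between the lines as error, and FOXA1, KLF5 and ELF5 were called by both fits. EHF enters the fit of the gap with its AP21967 effects unlike between lines, -0.20 in iKR, -0.41 in iWT and 0.11 in iEV.

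**Figure D3:**
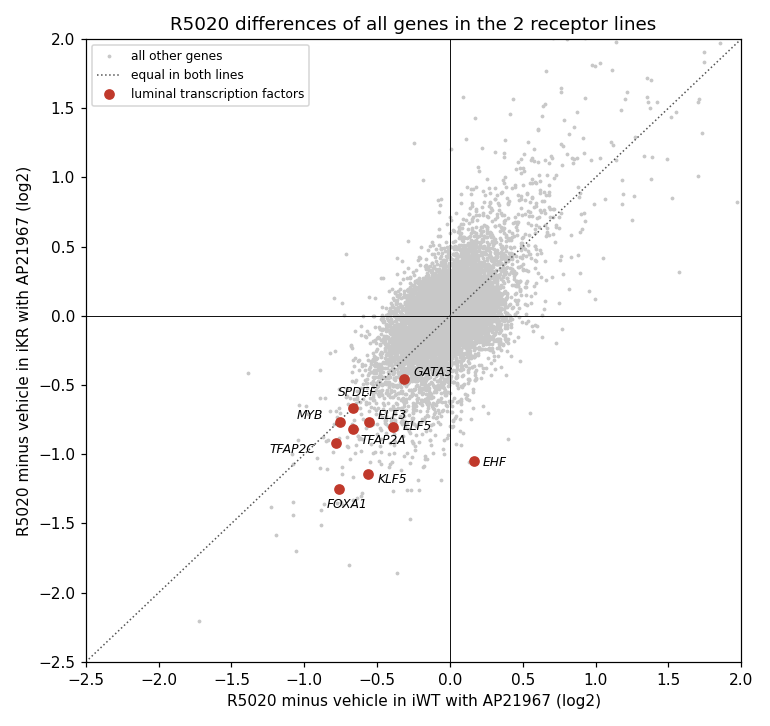
R5020 minus vehicle with AP21967 for each gene past the filter in iWT (x axis, log2) and iKR (y axis, log2), with the 10 luminal factors in red and the dotted line marking equal differences. 18 of the 10901 other genes lie outside the axes. The members lie on or below the dotted line, and 9 of them lie below 0 in both lines, as do 31.2% of all genes.

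R5020 in the absence of AP21967 had little measurable effect on these genes. Its difference ran from -0.21 to 0.10 in iKR and from -0.28 to 0.10 in iWT, and 0 members were called by limma in either direction, where 0.00917% of all genes were called higher and 0.0% lower. MYB was the only member with an unadjusted p under 0.05, at an estimate of -0.24 (SE 0.08, unadjusted p = 0.0116, limma adjusted p = 1.0). It read 8.46 with R5020 and 8.67 with vehicle in iKR cells, and 8.28 and 8.55 in iWT cells. For FOXA1 the estimate was -0.09 with a 95% interval from -0.34 to 0.17, and for TFAP2C it was -0.09 with an interval from -0.27 to 0.09.

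The effect of R5020 with AP21967 was then set against that without it. This inducer-dependent difference was below 0 for each of the 10 genes (median -0.64, against 0.00 over all genes), and 6 were called lower by limma, while 0.687% of all genes were called lower and 1.41% higher. They were TFAP2C (-0.77, adjusted p = 0.0119), ELF3 (-0.70, adjusted p = 0.0246), FOXA1 (-0.92, adjusted p = 0.0259), TFAP2A (-0.65, adjusted p = 0.0262), SPDEF (-0.56, adjusted p = 0.0391) and MYB (-0.52, adjusted p = 0.0489). KLF5 (-0.83, adjusted p = 0.0527), ELF5 (-0.64, adjusted p = 0.0648), GATA3 (-0.34, adjusted p = 0.187) and EHF (-0.54, adjusted p = 0.473) did not pass. The count of 6 was 9 with an intensity trend and robust prior, 8 with the additive fit over all 10 arrays and 7 with median centring, and it was 3 when all probe sets of a gene were averaged and 1, TFAP2C, after cyclic loess normalization. After cyclic loess the estimates changed little (FOXA1 -0.89, ELF3 -0.67), and the 5 calls lost had adjusted p of 0.0505 to 0.0709 by limma.

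AP21967 on its own, without R5020, was tested over the 3 lines. By limma 0 members were called in either direction, as were 0.0% of all genes each way, and 0 members had an unadjusted p under 0.05. Estimates ran from -0.17 for EHF to 0.03 for TFAP2C. Among single pairs of arrays the lowest were EHF in iWT (-0.41) and SPDEF in iKR (-0.32). With R5020 present, AP21967 gave a negative difference for all 10 genes in both lines, from -1.35 to -0.52 in iKR and from -0.68 to -0.32 in iWT. These pairs share the arrays with both compounds with the R5020 comparison above.

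The lines also differed without R5020. The arrays with and without AP21967 served as the repeats of a line in this fit. KLF5 was higher in iKR than in iEV by 0.67 (limma adjusted p = 0.000718), in iWT than in iEV by 0.32 (adjusted p = 0.021) and in iKR than in iWT by 0.35 (adjusted p = 0.0444). Its order was thus iKR, iWT and iEV, with 11.06 and 11.26 in iKR, 10.77 and 10.85 in iWT and 10.55 and 10.45 in iEV (AP21967 and vehicle). In iKR against iEV, TFAP2C (0.25, adjusted p = 0.0146) and MYB (0.29, adjusted p = 0.0211) were higher as well and GATA3 was lower (-0.28, adjusted p = 0.0153), where 12.9% of all genes were called higher and 12.8% lower. In iWT against iEV, TFAP2C was the other gene called (0.20, adjusted p = 0.0401), where 12.0% were called higher and 11.8% lower. In iKR against iWT, KLF5 alone was called, where 2.91% were higher and 2.11% lower. FOXA1, ELF3, ELF5, EHF, SPDEF and TFAP2A were called in none of the 3 line comparisons.

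Several probe sets report each of 8 members, and they were compared next. Of all 23, 18 were called lower and 0 higher for R5020 with AP21967 when limma was fitted over the 22277 probe sets, of which 4.77% were called lower. For the inducer-dependent effect 8 were called, against 0.391% of all probe sets. The other GATA3 probe sets gave -1.10 and -0.88 in iKR and -0.49 and -0.63 in iWT, larger differences than at the lead probe set in each line. The second KLF5 probe set gave -2.29 in iKR and -0.73 in iWT. That of TFAP2C gave -0.64 in iKR and -0.81 in iWT, so that the order of the lines was reversed between its probe sets. The 5 that were not called were that of EHF and 4 others, 2 of SPDEF (means 8.45 and 7.97), 1 of TFAP2A (6.36) and 1 of MYB (5.27). The 2 of SPDEF gave 0.00 and -0.08 in iKR and 0.04 and -0.13 in iWT. That of TFAP2A gave -0.28 in iKR and -0.13 in iWT, and that of MYB 0.24 and -0.08.

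**Figure D4:**
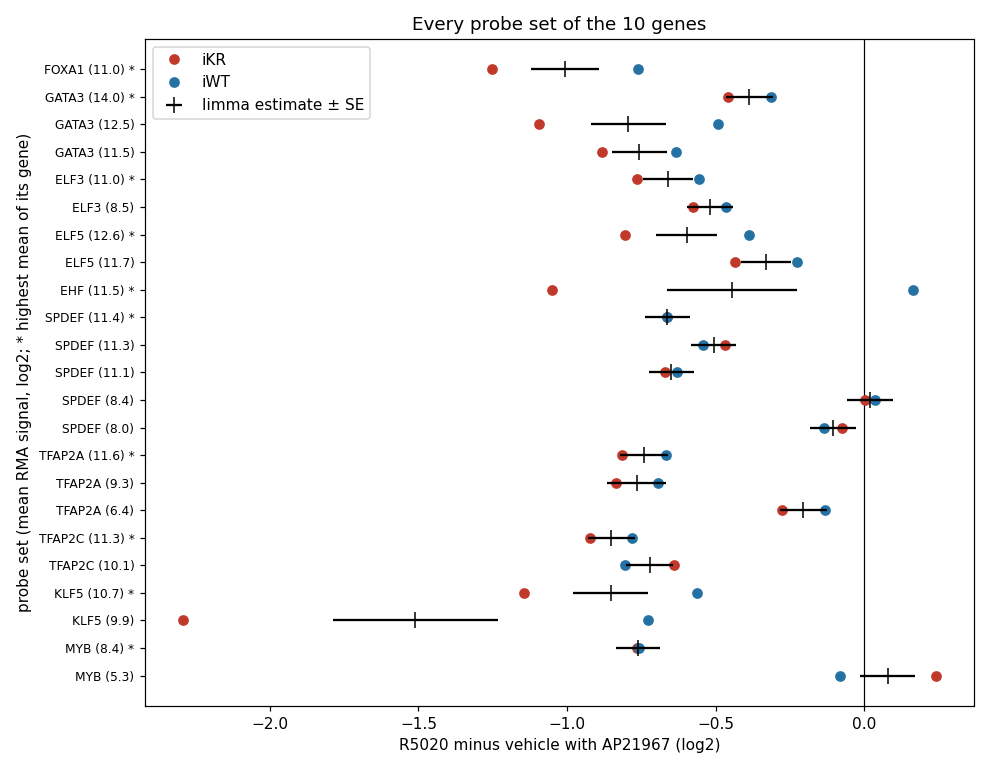
Log2 difference R5020 minus vehicle with AP21967 for each of the 23 probe sets in iKR (red) and iWT (blue), with the limma estimate and its SE in black. The mean signal is in parentheses and an asterisk marks the lead probe set. 18 of the 23 were called lower, and the second KLF5 probe set reached -2.29 in iKR.

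The members' values followed one another across the arrays. Pearson's r between pairs of members over the 10 arrays ran from 0.40 to 0.98 with a median of 0.83, but over the 8 arrays without both compounds it ran from -0.87 to 0.85 with a median of -0.08. The likeness thus rested on the 2 arrays with both compounds. Among the 775 genes with an SD over arrays of 0.3 or more, MEGF9 had the values most like those of FOXA1 (r = 0.99 over 10 arrays), then ZNF432 (0.98) and ELF3 (0.98). For GATA3 they were IRX5 (0.99), RMND1 (0.98) and MACIR (0.98), for ELF3 TESK2 (0.98), MEGF9 (0.98) and FOXA1 (0.98), and for ELF5 ZNF175 (0.99), SLC35A1 (0.98) and WWP1 (0.96). PIK3R3, a regulatory subunit of phosphoinositide 3-kinase, was the closest to both SPDEF (0.97) and TFAP2A (0.98), followed for SPDEF by ID2 (0.95) and TFAP2A (0.95) and for TFAP2A by PHF20 (0.97) and FOXA1 (0.96). For TFAP2C they were POU2F3 (0.98), MECOM (0.96) and BLNK (0.96), for KLF5 SOX2 (0.96), ARHGAP6 (0.95) and PTPN13 (0.94), and for MYB ATXN1 (0.95), INSIG2 (0.95) and FAM13A (0.93). EHF, whose iWT array with both compounds was not low, was closest to TOB1 (0.94), ZNF350 (0.93) and LMO4 (0.93). Other members thus appear among the closest genes of FOXA1, ELF3, SPDEF and TFAP2A. These correlations describe 10 arrays that share 3 lines and 2 treated arrays, and carry no test.

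Of 15 other transcription factors of the luminal program, 13 passed the filter and 7 fell with R5020 and AP21967, with 0 called higher. Their median was -0.33, against 0.01 over all genes, of which 6.25% were called lower and 5.23% higher. At an unadjusted p under 0.05 (limma) there were 9 below 0 and 3 above it. This list and those that follow were chosen with earlier results of these data known, so their counts are descriptive. ESR1, the estrogen receptor, read 8.68 with both compounds in iKR cells, against 9.65, 10.19 and 10.10 with AP21967, R5020 and vehicle. In iWT cells it read 10.14, against 10.75 with AP21967, 10.76 with R5020 and 10.80 with vehicle. The estimate was -0.79 (SE 0.10, limma adjusted p = 0.00158), and the iKR array with AP21967 alone already differed from the iKR array with vehicle by -0.44. TRPS1, a GATA family repressor, had an estimate of -0.94 (adjusted p = 0.0036), and XBP1, a regulator of secretory function, one of -0.64 (adjusted p = 0.00865). ZNF217, LMO4 and NFIB were called as well (-0.59, -0.55 and -0.36), as was STAT6 (-0.33). CEBPB, not called, had differences of 0.72 in iKR and 0.00 in iWT, and TBX3 -0.08 and -0.51.

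Of 26 relatives of the members from the same families, 25 passed the filter, 5 were called higher and 2 lower, with a median of 0.08. Over all genes 5.23% were called higher and 6.25% lower, with a median of 0.01. KLF4, a relative of KLF5, read 10.82 with both compounds in iKR and 11.09 in iWT cells, against 10.01 and 9.90 with AP21967. Its estimate was 1.00 (SE 0.10, limma adjusted p = 0.00069), opposite in sign to that of KLF5. KLF9 (0.52, adjusted p = 0.00691) and the ETS genes ETS2 (0.55, adjusted p = 0.0116), ELK1 (0.50, adjusted p = 0.036) and ELF1 (0.29, adjusted p = 0.0428) were higher. TFAP2B, the third AP-2 gene, fell like TFAP2A and TFAP2C (-0.46, adjusted p = 0.00871), as did ELK3 (-0.49, adjusted p = 0.0459). KLF10, not called, had differences of -1.03 in iKR and -0.17 in iWT (adjusted p = 0.0525).

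Of 22 genes known as targets of these factors, all passed the filter, 4 rose and 4 fell, with a median of 0.06. The shares over all genes were 5.23% higher and 6.25% lower, with a median of 0.01. PDGFA, a growth factor known as a KLF5 target, had an estimate of 0.79 (SE 0.08, limma adjusted p = 0.000854). MYC rose by 0.69 (adjusted p = 0.00134), CCND1, the cyclin of early G1, by 0.74 (adjusted p = 0.00827) and CITED1, a transcriptional coactivator, by 0.49 (adjusted p = 0.0046). XBP1 fell, and so did the receptor tyrosine kinases ERBB3 (-0.52, adjusted p = 0.022) and ERBB2 (-0.37, adjusted p = 0.0278) and the chemokine receptor CXCR4 (-0.36, adjusted p = 0.0217).

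The members are bright, and bright genes were looked at as a class. Of the members 9 had a mean of log2 10 or more, as had 3129 genes, whose median difference for R5020 with AP21967 was 0.00 in iKR and -0.09 in iWT, against member medians of -0.81 and -0.61. The SD of signal over probe sets was lowest on the iWT array with both compounds (2.09, against 2.11 to 2.14 on the other arrays). After cyclic loess the members ran from -1.25 to -0.44 in iKR and from -0.75 to 0.25 in iWT.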

How the data were processed

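Total RNA of 10 conditions, 1 sample each, was hybridized to Affymetrix human expression arrays. The authors applied Robust Multi-array Average (RMA), so the deposited values are background-corrected, quantile-normalized log2 signals of 22277 probe sets, and their number of arrays limits the precision. Probe sets were named through the platform annotation supplied for them: 19070 had 1 gene, 1043 several and 2164 none. Where a gene had several, that of highest mean stood for it, and a gene was kept if any array reached log2 6.

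Linear models were fitted with limma 3.58.1 (R 4.3.3), with empirical Bayes moderation and Benjamini-Hochberg adjustment over 10911 genes. The R5020 fit took the 8 iKR and iWT arrays, gave every combination of line and inducer its own mean, and estimated the R5020 effect separately for arrays lacking and arrays holding AP21967. The line fit took the 6 arrays without R5020, with line and AP21967 as terms (4 parameters, 2 residual degrees of freedom). The sources used here do not say that conditions were repeated in separate cultures, so the p-values measure the spread between these arrays. The gap between iKR and iWT was tested by the fit over all 10 arrays described with its result. Single-array differences followed the study's methods and carry no p. The dose of each compound is written in 2 notations in the sources and is not printed. Alternatives changed the filter, the gene value, the normalization, the prior and the arrays fitted. Scripts were tested on simulated data.

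All 10 members were named, and from each gene list at most 6 genes called for R5020 with AP21967 by smallest p, with up to 2 of the largest differences not called. For likeness the 3 genes of highest Pearson's r were named per member. STAT6, ELK3, ERBB2 and ERBB3 were named beyond this rule, to complete their lists, after their values were seen. The members and lists were chosen with earlier results of these data known. Promoter sequences came from RefSeq (GRCh38.p14).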

Additional observations from a re-analysis of the deposited data

Results flagged for a closer look

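The R5020 effect with AP21967 was called different between iKR and iWT for 4 members by the test over all 10 arrays, a fit chosen after seeing the data. It rests on a single array with both compounds in each line, with no spread between cultures for that condition. The difference (iKR minus iWT, log2) was -1.08 for EHF, -0.62 for KLF5, -0.54 for FOXA1 and -0.45 for ELF5. For EHF the single-array gap was -1.22, since the difference of 2 arrays was -1.05 in iKR and 0.16 in iWT. The value of 0.16 is taken against an iWT array with AP21967 alone that was itself lower than vehicle by 0.41 on the log2 scale, and against R5020 alone the iWT array with both compounds differed by -0.34. The other 8 EHF arrays spanned 0.51.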

How the results depend on the processing

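The count of members called lower for R5020 with AP21967 was 9 under each alternative tried, apart from 7 of 7 when probe sets ending in _x_at and _s_at were left out, which leaves ELF5, EHF and SPDEF without a probe set. The inducer-dependent count of 6 became 9 with an intensity trend and robust prior, 8 with the additive fit over all 10 arrays, 7 with median centring, 5 with each probe set on its own, 5 of 7 without _x_at and _s_at probe sets, 3 with the mean of probe sets and 1 after cyclic loess, where the lost calls had adjusted p of 0.0505 to 0.0709. The 4 members called lower in iKR than in iWT became 3 with the mean of probe sets, where ELF5 was lost, and 2 of 7 without _x_at and _s_at probe sets, and were 4 under the other 6 settings, including without the iEV arrays. For the inducer-dependent effect, 75 of all genes were called lower, against 35 after cyclic loess and 149 with the trend and robust prior. With additive line and AP21967 terms over all 10 arrays, a fit chosen after seeing the data, 203 were called lower for that effect. Called higher for it were 154, against 325 with the additive fit. For R5020 with AP21967, 571 genes were called higher, against 342 without _x_at and _s_at probe sets, where fewer genes (7241) were tested. Without AP21967, 1 gene was called higher for R5020 and 0 under the additive fit, and for AP21967 alone 0 and, with the trend and robust prior, 4. The causes of these shifts were not tested.

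Members called in the line comparisons changed more. In iWT against iEV (2 higher, 0 lower), there were 1 higher and 1 lower without _x_at and _s_at probe sets, 4 higher and 1 lower with the trend and robust prior and 1 higher over all 10 arrays. In iKR against iWT (1 higher, 0 lower), 1 was lower with a mean of log2 7 or more and 1 with the mean of probe sets. With the trend and robust prior 2 were higher and 4 lower, and over all 10 arrays 0 were higher and 3 lower. Without _x_at and _s_at probe sets 7241 genes were tested in place of 10911, and fewer were called. In iWT against iEV 748 were higher and 770 lower (10.3% and 10.6%), against 1313 and 1289 (12.0% and 11.8%). In iKR against iEV there were 792 and 831 (10.9% and 11.5%), against 1412 and 1397 (12.9% and 12.8%). In iKR against iWT there were 169 and 123 (2.33% and 1.70%), against 317 and 230 (2.91% and 2.11%). All genes called higher and lower in iKR against iWT were 550 and 490 with the trend and robust prior and 561 and 379 over all 10 arrays. At 1.5 in place of 2.0 fold, the members passing were 9 in iKR (3) and 5 in iWT (0).

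Signs that turned belonged to values near 0 that were not called. R5020 without AP21967 gave 0.0186 for KLF5 under the additive fit, and the gap between iKR and iWT was 0.15 for MYB with the mean of probe sets. AP21967 alone gave 0.0115 for GATA3, -0.0287 for TFAP2A, -0.0345 for TFAP2C and 0.0582 for KLF5 with the mean of probe sets, 0.175 for KLF5 without _x_at and _s_at probe sets, 0.0083 for ELF5 with median centring and -0.0071 for ELF3 after cyclic loess. In the line comparisons, without _x_at and _s_at probe sets GATA3 gave 0.0114 in iWT against iEV and ELF3 0.0598 in iKR against iWT. In iKR against iEV, ELF5 gave -0.0404 and TFAP2A 0.0103 with the mean of probe sets, and ELF5 gave -0.0336 over all 10 arrays. No paired analysis was possible because all arrays carried the same replicate number, which forms no blocks, while the R5020 fit already compares R5020 with vehicle within each line and inducer state.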
